A study of Mus musculus with 2 samples.

Results

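Fibroblast growth factors (FGFs) are secreted proteins that bind receptor tyrosine kinases together with heparan sulphate on the cell surface. The bound receptors phosphorylate FRS2 adaptors and switch on the RAS-ERK cascade, which in turn induces its own inhibitors, among them the Sprouty and Dusp genes. In the skin, Fgf7 and Fgf10 are known as mesenchymal ligands that act on the epithelial splice form of Fgfr2, and Fgf5, a product of the outer root sheath (ORS), is known to end the growth phase of the hair follicle (HF). To describe where ligands and receptors of this family were transcribed in newborn mouse skin, 9 genes were chosen by name and matched to the entries with the same symbol among the 56694 features of the count tables. These were the 6 ligands Fgf5, Fgf7, Fgf10, Fgf18, Fgf20 and Fgf22 and the 3 receptors Fgfr1, Fgfr2 and Fgfr3, and all 9 were found.

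The study asked what the hedgehog transcription factor Gli2 does in the skin epithelium. Epidermal whole mounts of dorsal back skin were dissociated at postnatal day 2 (P2) with collagenase and trypsin, and 1 single-cell library was made per genotype. Gli2EKO denotes K14Cre tg; Gli2 fl/fl mice, in which the keratin 14 promoter drives Cre recombinase in keratinocytes, so that Cre is not expected in dermal cells. The control library is labelled WT, and by the study's methods controls were floxed littermates without Cre, all on the C57BL/6N background. How many mice went into a library was not stated.

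The control library held 6326 cell barcodes with 71021773 unique molecular identifiers (UMIs, each a captured transcript molecule), and the Gli2EKO library held 4296 barcodes with 48866478 UMIs. After filtering and removal of likely doublets, 4457 control and 3094 Gli2EKO cells remained, with medians of 11806 and 11909 UMIs per cell, and the libraries shared 0 barcodes. Levels are given as counts-per-million (CPM), the UMIs of a gene scaled to the UMIs of all cells of a class in a library, with exact 95% Poisson intervals in parentheses, and ratios as log2 of Gli2EKO over control with exact conditional binomial intervals. Such intervals describe the error of counting and nothing else. As there was no replicate of either genotype, no difference was tested, and a difference between genotypes cannot be told apart from one between libraries. Because the assay counts transcript 3' ends, levels were compared within a gene and not between genes.

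Cells were clustered without the FGF genes and named by marker genes, which gave 26 classes, 22 of them named and 4 left unnamed. In control, 592 cells were classed as epidermal, 2733 as follicle and 848 as dermal. In Gli2EKO, the corresponding numbers were 890, 1412 and 642. Although the tissue is labelled epidermis, the dermal cells carried dermal markers: Col1a1, a fibrillar collagen gene, reached 7799.5 CPM in control and 6763 CPM in Gli2EKO dermal cells, against 43.5 and 27.99 CPM in keratinocytes. Krt14, the basal keratin, behaved in the opposite way, with 4394 and 7917 CPM in keratinocytes and 84.1 and 90.8 CPM in dermal cells. The genotype label could not be checked with Gli2 itself, since the deleted exons are not stated in the sources used here and only the transcript end was counted. Gli2 UMIs made up 97.8 CPM in control and 95.02 CPM in Gli2EKO follicle cells and 39.2 and 73.3 CPM in epidermal cells. Ptch1, the hedgehog receptor and a target gene of the pathway, was at 222 CPM in control and 135 CPM in Gli2EKO follicle cells, but at 34.5 and 93.5 CPM in epidermal cells.

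To see in which tissue compartment each member was transcribed, dermal cells were first compared with keratinocytes, that is, with epidermal and follicle cells together. The ligands Fgf7, Fgf10 and Fgf18 and the receptor Fgfr1 were higher in dermal cells, whereas Fgf5, Fgf22 and Fgfr3 were higher in keratinocytes. Of the 9 members, 4 were at least 2-fold higher in dermal cells in both libraries, compared with 18.0% of the 19856 genes tested, and 3 were at least 2-fold lower, compared with 16%. Fgfr2 and Fgf20 passed neither limit. Both shares lay above those of all genes, but the members had been picked as known skin ligands and receptors, and their counts are given as a description.

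The dermal ligands showed the widest gaps. Fgf7 reached 175 CPM (167 to 183) in control dermal cells and 0.564 CPM (0.368 to 0.826) in keratinocytes, a log2 ratio of 8.28, and 56.0 CPM (50.5 to 62.1) against 0.271 CPM (0.124 to 0.515) in Gli2EKO, a log2 ratio of 7.69. Fgf10 was 367-fold higher in dermal cells in control and 255-fold higher in Gli2EKO, and Fgf18 had log2 ratios of 5.86 and 5.58. Fgfr1 was shared more evenly, 3.01-fold and 4.61-fold higher in dermal cells. In the other direction, Fgf5 had log2 ratios of -4.79 and -4.62, Fgfr3 of -3.35 and -3.26, and Fgf22 of -1.93 and -1.92, the last with an upper bound of 0.04 in Gli2EKO, where only 2 UMIs fell in dermal cells. Fgfr2 lay close to balance at 0.24 and 0.42. Thus, each of these genes leaned to one compartment in both libraries, while the intervals of Fgfr1 (2.88 to 3.15 and 4.36 to 4.87 as folds) and Fgfr2 (0.17 to 0.30 and 0.35 to 0.50 in log2) did not overlap between the libraries. The mix of epidermal and follicle cells among the keratinocytes also differed between the libraries, and its part in these ratios was not tested.

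**Figure D1:**
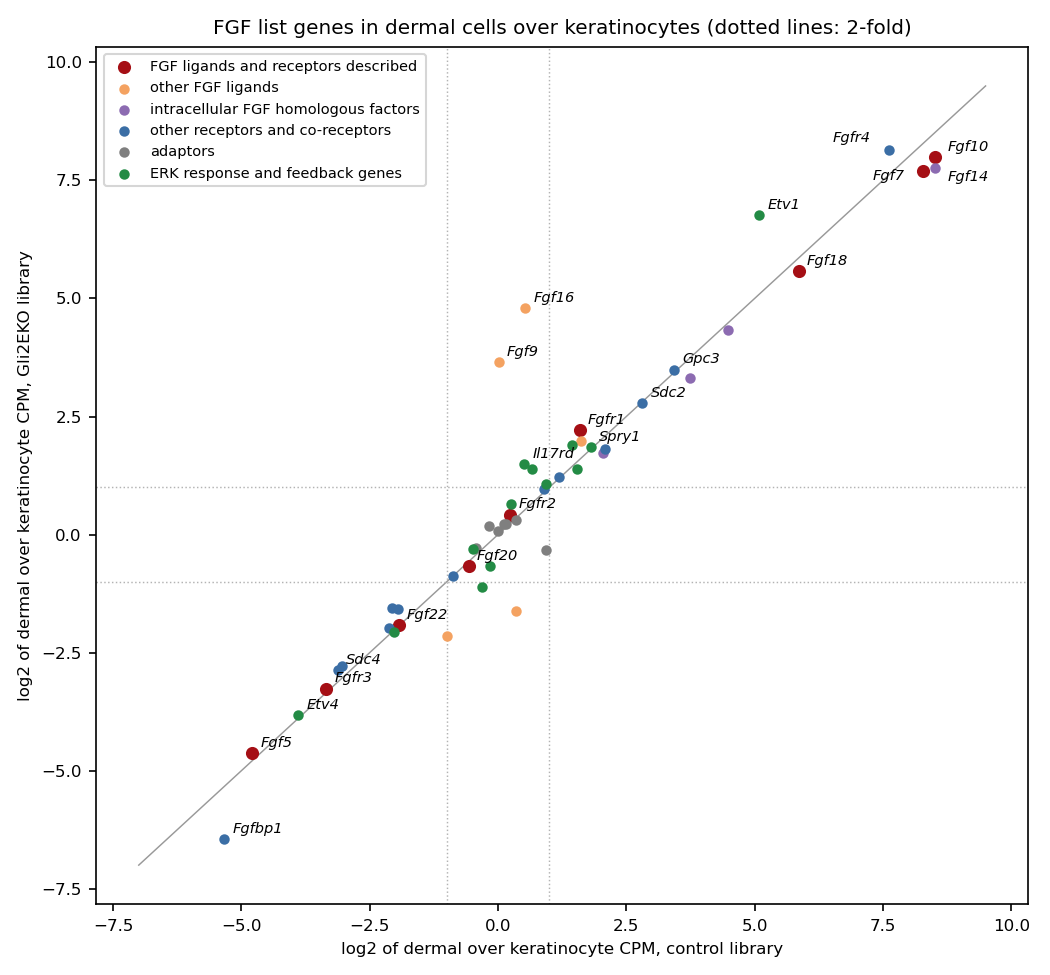
Log2 ratio of the level in dermal cells over that in keratinocytes in control (horizontal axis) and Gli2EKO (vertical axis) for 51 genes of the FGF lists with at least 20 UMIs, 1 further gene having no UMI in one of the groups; each point is a gene, members are red and named, and dotted lines mark 2-fold. Fgf7 and Fgf10 lie at the upper right and Fgf5 and Fgfr3 at the lower left, so the order of the members was alike in both libraries.

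Next, the ligands were followed through the cell classes, starting with Fgf7, keratinocyte growth factor (ENSMUSG00000027208, chr2:125876578-125934218 on the plus strand of GRCm39). Fgf7 transcripts were concentrated in dermal papilla (DP)-like cells, the mesenchymal cells at the base of the HF. These formed 2 classes, one with high Rspo2 (114 control and 68 Gli2EKO cells) and one with high Adamts18 (78 and 88 cells), so that most DP-like cells belonged to the Rspo2-high class in control and to the Adamts18-high class in Gli2EKO. In Rspo2-high DP-like cells Fgf7 reached 1463 CPM (1389.6 to 1540.1) in control, and these cells held 83.7% (81.8 to 85.4) of its 1762 UMIs. In Gli2EKO the same class was at 508 CPM (445 to 578) and held 60.3% (55.2 to 65.2) of 385 UMIs. Next in order came a small unnamed class with high Ryr3 and Mylk (14 and 3 cells) at 289 and 239.9 CPM, and then Adamts18-high DP-like cells at 126 CPM (97.8 to 159) and 65.2 CPM (46.1 to 89.5). From there down, the values of the libraries overlapped between neighbouring classes: Schwann-like cells had 21.7 and 31.0 CPM, from 10 and 3 UMIs, Tnmd-high fibroblast-like cells had 15.8 and 24.7 CPM and the other fibroblast-like cells 17.3 and 16.02 CPM.

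Compared to control, Fgf7 was lower in both DP-like classes of Gli2EKO. The log2 ratio was -1.53 (-1.73 to -1.33) in Rspo2-high and -0.95 (-1.55 to -0.36) in Adamts18-high DP-like cells. Over all DP-like cells it was -1.93 (-2.12 to -1.74), and with the Gli2EKO clusters weighted by their control shares, a choice made after seeing the data, it was -1.49. Outside the DP-like classes, the remaining dermal cells had 20.5 and 17.9 CPM, with a log2 ratio of -0.20 (-0.57 to 0.16). The lower Fgf7 level was therefore seen in DP-like cells, while the interval for other dermal cells included equal levels. In Adamts18-high cells, the 9 DP markers summed to 5442 CPM in control and 4593 CPM in Gli2EKO. Of these, Corin (1284 and 726 CPM) and Hhip (586 and 323 CPM) were lower in Gli2EKO, Rspo3 (1571 and 1551 CPM) and Crabp1 (264 and 233 CPM) were closer to equal, Sox18 (640.1 and 753 CPM) and Sox2 (7.17 and 18.9 CPM) were higher, and the contractile genes Tagln (61.0 and 213 CPM) and Acta2 (21.5 and 49.8 CPM) were higher. The part of these differences in the lower Fgf7 level was not tested.

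Markers also moved in the Rspo2-high class. In Rspo2-high DP-like cells the 9 DP markers were all detected in both libraries and summed to 7839 CPM in control and 6114 CPM in Gli2EKO, with Rspo3 the most abundant at 2436 and 2067 CPM. Of these, Crabp1 (1931 and 1259 CPM), Hhip (1447 and 1005 CPM) and Sox18 (281 and 166 CPM) were lower in Gli2EKO, Corin was close to equal (818 and 797 CPM) and Sox2 was higher (198 and 232 CPM). The part of these differences in the lower ligand levels was not tested. The 6 melanocyte markers summed to 47.7 CPM in control, led by Mitf at 31.8 CPM, and to 475 CPM in Gli2EKO, led by Dct at 289 CPM. The 6 endothelial markers summed to 10.9 and 101 CPM, with Kdr at 8.94 CPM and Cdh5 at 74.5 CPM the most abundant. In control Cdh5, Tie1 and Emcn, and in Gli2EKO Pecam1 and Tie1, were at 0 UMIs. Gli2EKO cells of this class thus carried more melanocyte and endothelial RNA. The 6 immune markers summed to 6.95 CPM in control, led by Tyrobp at 2.98 CPM with Ptprc, Cd52 and Cd207 at 0 UMIs, whereas in Gli2EKO Fcer1g alone had UMIs, at 50.4 CPM. When cells with a UMI of any of these 18 genes were left out, a choice made after seeing the data, 68 control and 45 Gli2EKO cells remained. In these, Fgf7 had a log2 ratio of -1.51 (-1.76 to -1.26) and Fgf10 of -0.75 (-1.07 to -0.45). Both were thus also lower in Rspo2-high DP-like cells without a counted UMI of these 18 genes. In the same cells Fgfr1 was higher, at 0.63 (0.44 to 0.81), which is past the 1.5-fold limit used below. The part of RNA from other cells in these differences was not tested. Among the upper follicle markers, Sostdc1, a gene also known from the DP, stood at 1606 CPM in control and 530.0 CPM in Gli2EKO, and its part in the result was not tested.

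Fgf10, a second ligand of the same receptor form (ENSMUSG00000021732, chr13:118806327-118928672, plus strand), had its highest levels in the same cells but was spread more widely over the dermis. Rspo2-high DP-like cells had 664 CPM (615 to 716) in control and 335 CPM (284 to 393) in Gli2EKO, and Adamts18-high DP-like cells followed with 159.6 CPM (128 to 196) and 192 CPM (158 to 231). Tnmd-high fibroblast-like cells (57.7 and 43.6 CPM), an unnamed Sox18 dermal class (29.9 and 68.4 CPM) and the other fibroblast-like cells (48.5 and 41.5 CPM) came next, with values that overlapped between these classes. The small Ryr3 and Mylk class had 7 UMIs in control, 59.4 CPM, and 0 in Gli2EKO, where 3 UMIs would be 102.8 CPM. Here, the genotypes differed by class. The log2 ratio was -0.99 (-1.25 to -0.73) in Rspo2-high DP-like cells but 0.27 (-0.15 to 0.69) in Adamts18-high DP-like cells, and -0.19 (-0.43 to 0.04) in dermal cells outside the DP-like classes. Among the latter, the unnamed Sox18 class was higher in Gli2EKO, at 1.19 (0.20 to 2.26), from 13 control and 29 Gli2EKO UMIs. Over all DP-like cells it was -0.93 (-1.13 to -0.72). Thus, Fgf10 was lower in Gli2EKO in Rspo2-high cells, while the interval of the Adamts18-high cells included equal levels.

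**Figure D2:**
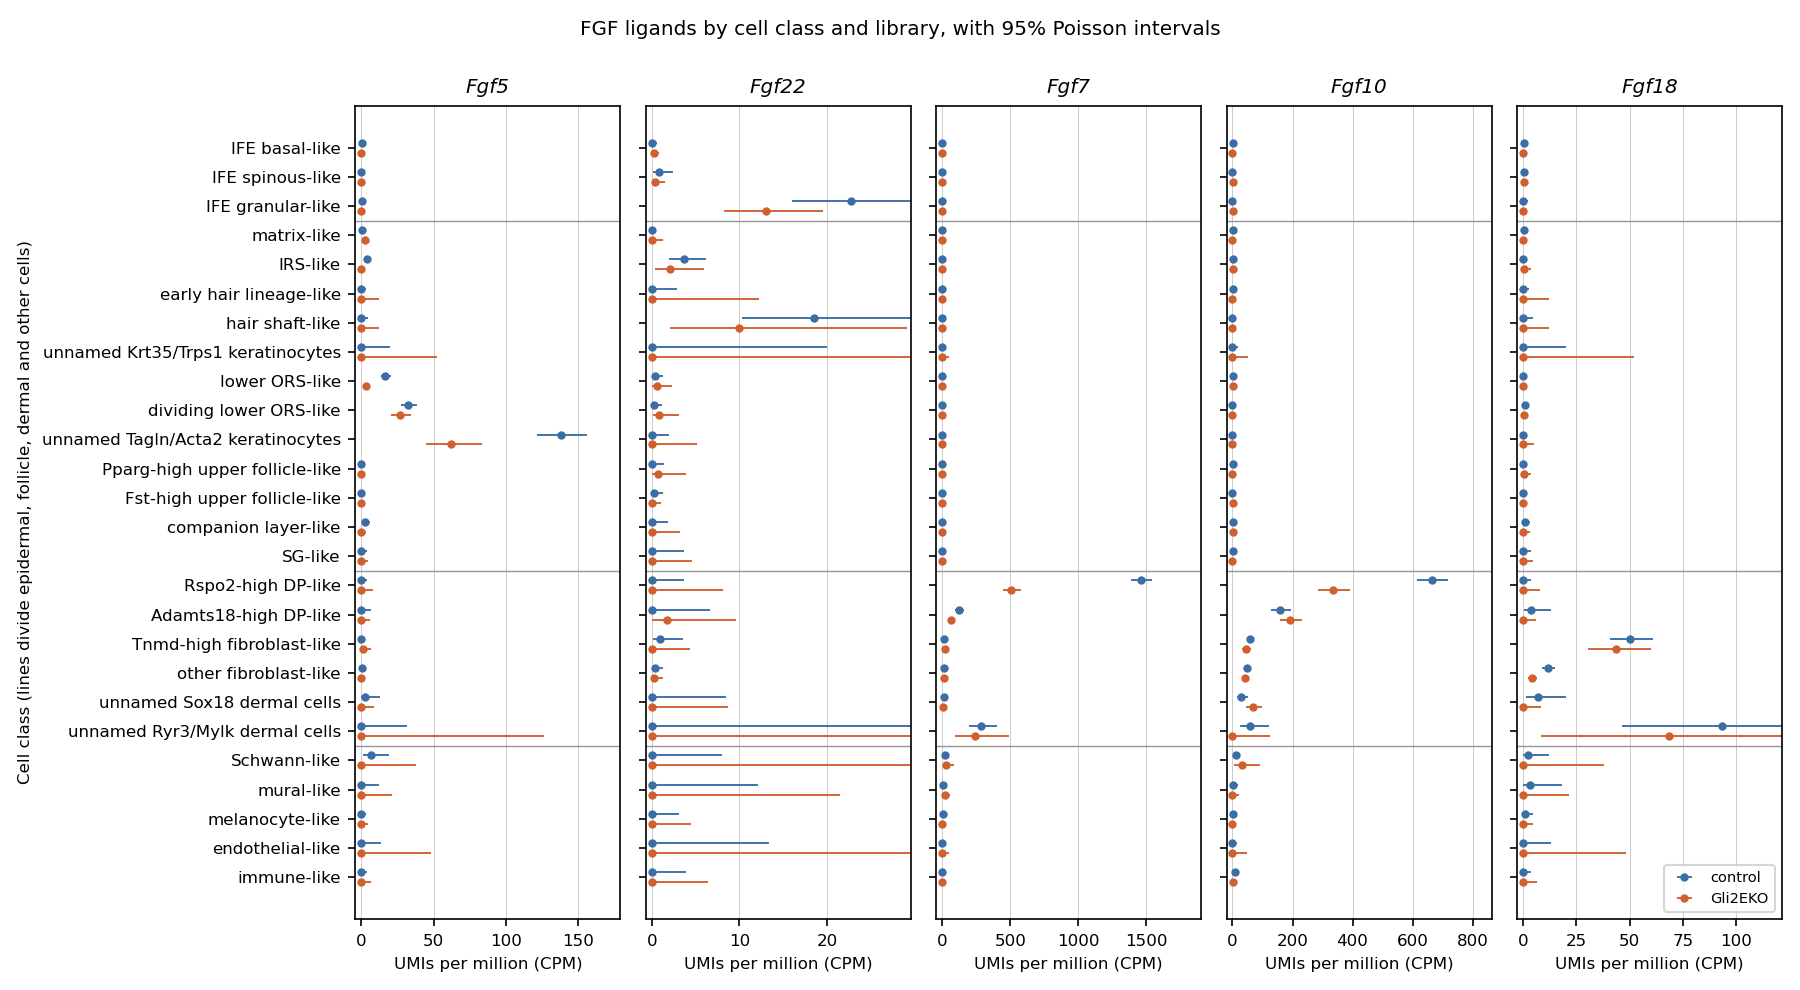
Level of the ligands Fgf5, Fgf7, Fgf10, Fgf18 and Fgf22 (CPM) in each cell class, 1 panel per gene; points are the control and Gli2EKO libraries and bars are 95% Poisson intervals, and a bar that reaches the right edge of a panel goes on beyond it. Fgf7 and Fgf10 peak in Rspo2-high DP-like cells, Fgf5 in keratinocytes with high Tagln and Acta2, Fgf18 in dermal and Fgf22 in granular and hair shaft-like cells; Fgf20, with 34 UMIs, is not plotted.

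Shares of cells with a UMI were then compared after every cell had been thinned to 2000 UMIs. Fgf7 was detected in 79.8% (71.3 to 86.8, Clopper-Pearson) of 114 control and 42.6% (30.7 to 55.2) of 68 Gli2EKO Rspo2-high DP-like cells. Fgf10 was detected in 53.5% (43.9 to 62.9) and 29.4% (18.98 to 41.7) of them. Among Adamts18-high DP-like cells, Fgf10 was detected in 33.3% of control and 29.5% of Gli2EKO cells and Fgf7 in 15.4% and 7.95%. The shares of Fgf7 thus followed its levels, whereas for Fgf10 the DP-like classes of Gli2EKO had nearly equal shares. In keratinocytes, where the dermal collagens stood at 0.534% and 0.434% of their dermal level, Fgf7 and Fgf10 were each detected in 2 of 3320 control and 1 of 2289 Gli2EKO cells. Median depth before thinning was 8776 and 6208 UMIs in Rspo2-high DP-like cells and 12425 and 12888 UMIs in the keratinocytes. Without thinning, 74.0% of control and 44.2% of Gli2EKO DP-like cells had Fgf7.

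**Figure D3:**
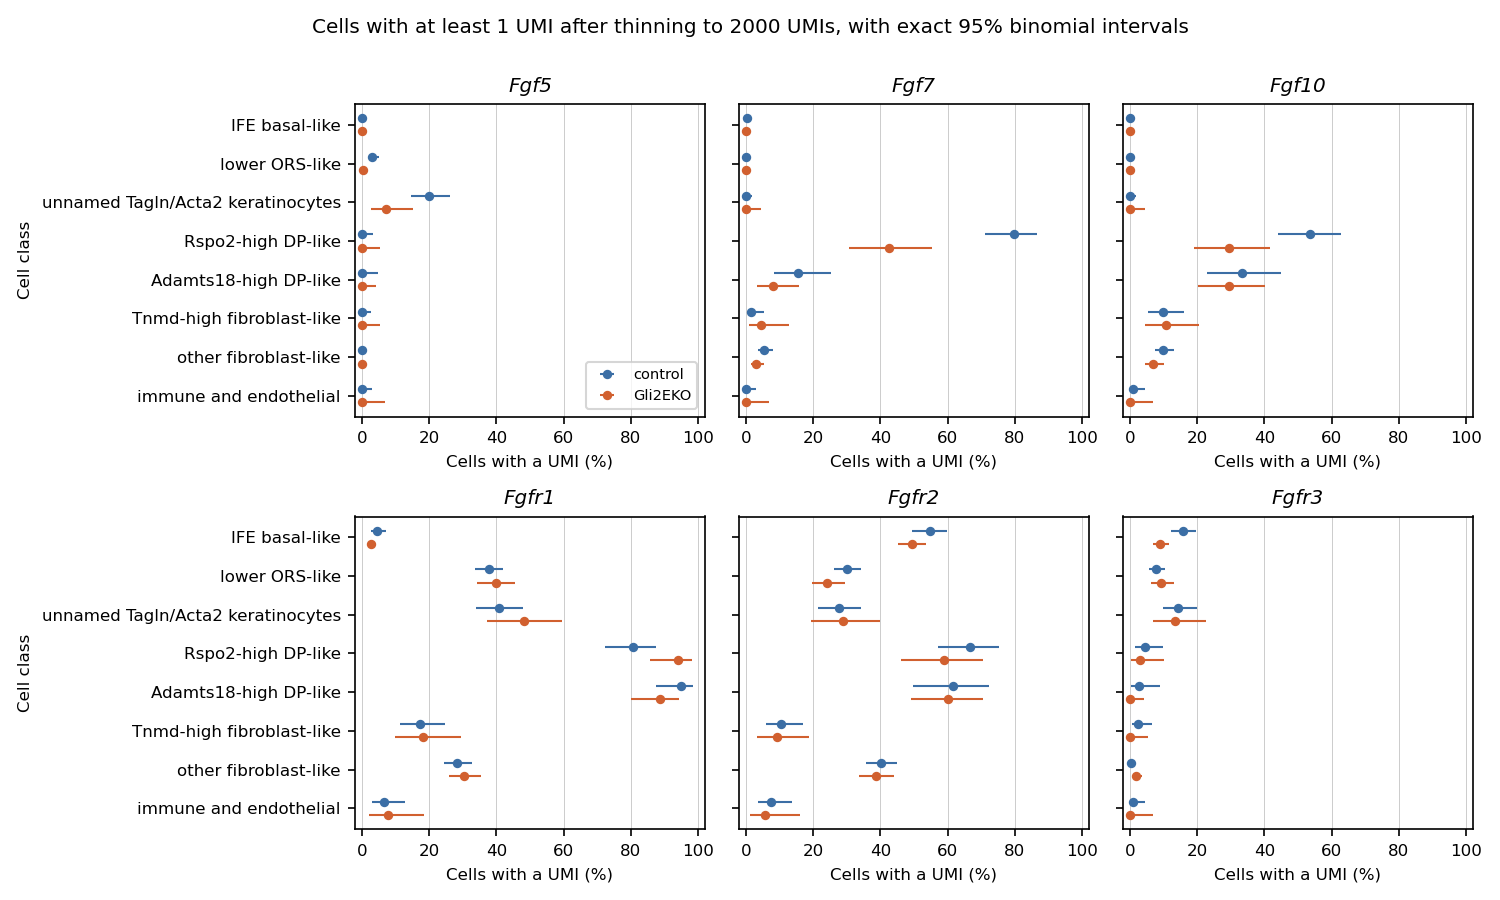
Percent of cells with at least 1 UMI of a member after thinning each cell to 2000 UMIs, by cell class; points are the control and Gli2EKO libraries and bars are 95% Clopper-Pearson intervals. Fgf7 and Fgf10 stand higher in DP-like cells than in immune and endothelial cells, 2 of which held 8 Fgf10 UMIs in control.

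Both ligands were often present in the same cell in the Rspo2-high class. At 5000 UMIs per cell, 72.3% (63.1 to 80.4) of 112 control and 41.4% (28.6 to 55.1) of 58 Gli2EKO Rspo2-high DP-like cells had Fgf7 and Fgf10 together, where the product of the separate shares gave 69.1% and 33.0%. Adamts18-high DP-like cells had both in 19.1% (10.6 to 30.5) of 68 control and 8.22% (3.08 to 17.0) of 73 Gli2EKO cells, with products of 20.6% and 8.29%. In each of these classes the product lay within the interval of the joint share.

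Because the levels of Fgf7 and Fgf10 were both lower in the Rspo2-high DP-like cells of Gli2EKO, the 250 bases upstream of their annotated starts are shown, with matches to the motifs searched in capitals. The sequences are from RefSeq (GRCm38.p6, plus strand), chr2:126034408-126034657 for Fgf7 and chr13:118714449-118714698 for Fgf10.
Fgf7: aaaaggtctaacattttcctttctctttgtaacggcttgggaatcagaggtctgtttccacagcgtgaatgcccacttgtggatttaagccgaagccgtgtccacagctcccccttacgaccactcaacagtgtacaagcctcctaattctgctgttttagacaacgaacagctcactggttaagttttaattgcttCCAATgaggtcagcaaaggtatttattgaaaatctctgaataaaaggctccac
Fgf10: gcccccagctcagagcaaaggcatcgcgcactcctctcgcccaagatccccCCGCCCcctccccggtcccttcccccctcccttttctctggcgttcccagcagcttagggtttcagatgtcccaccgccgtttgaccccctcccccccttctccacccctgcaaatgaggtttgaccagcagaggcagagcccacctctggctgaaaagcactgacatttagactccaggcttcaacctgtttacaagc
Searched on both strands were the GLI motif GACCACCCA (present in 0.225% of 32851 promoter windows of this length), the AP-1 motif TGANTCA (6.75%), the LEF/TCF motif CTTTGAT (3.21%), the TATA box TATAAA (12.4%), CCAAT (33.8%) and the GC box GGGCGG (32.7%). The Fgf7 window held 1 match, a CCAAT on the plus strand from -53 to -49 relative to the start, and the Fgf10 window held 1 GC box on the minus strand from -199 to -194. Their GC contents were 43.6% and 61.2%, against a median of 52.4% over all windows. Of the 9 members, 7 had an entry, 8 windows in all, and of these 3 held CCAAT, 6 a GC box and 0 each of the other motifs. A match describes these letters only and is not a binding site.

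In contrast to the dermal ligands, Fgf5 (ENSMUSG00000029337, chr5:98401780-98452320, plus strand) was a follicle transcript. Its highest level was in an unnamed keratinocyte class with high Tagln and Acta2 (196 control and 84 Gli2EKO cells), contractile genes, in which lower ORS markers summed to 5649 and 5259 CPM. Fgf5 stood there at 138 CPM (121 to 156) in control and 61.9 CPM (45.003 to 83.1) in Gli2EKO. Dividing lower ORS-like cells followed with 32.5 CPM (27.5 to 38.2) and 27.01 CPM (20.7 to 34.6), and the remaining lower ORS-like cells with 16.6 CPM (13.5 to 20.4) and 3.51 CPM (1.75 to 6.28). These classes together carried nearly all Fgf5, and the remaining classes were low and overlapped, with 14 UMIs in control inner root sheath (IRS)-like cells and 3 UMIs in control epidermal cells. In DP-like cells 0 UMIs were counted, which limits the level to that of 3 UMIs, 1.92 CPM in control and 2.89 CPM in Gli2EKO.

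Compared to control, Fgf5 was lower in Gli2EKO in 2 of its 3 leading classes. The log2 ratio was -1.15 (-1.65 to -0.69) in the Tagln and Acta2 class, -2.25 (-3.30 to -1.34) in lower ORS-like cells, where 94 control and 11 Gli2EKO UMIs were counted, and -0.27 (-0.72 to 0.17) in dividing lower ORS-like cells, an interval that included equal levels. Matrix-like cells went the other way, at 1.79 (-0.08 to 3.79), from 5 control and 7 Gli2EKO UMIs, an interval that included equal levels. Over all follicle cells it was -1.10 (-1.40 to -0.82) and over all keratinocytes -1.60 (-1.89 to -1.31). Epidermal cells, with hardly any Fgf5, made up 17.8% of control and 38.7% of Gli2EKO keratinocytes. With the Gli2EKO classes weighted by their control shares, the log2 ratio in keratinocytes was -0.93. Ptch1 was also lower in Gli2EKO in these classes, at 649 and 266 CPM in the Tagln and Acta2 class, 205 and 163 CPM in lower ORS-like cells and 337 and 196 CPM in dividing lower ORS-like cells. Other genes also differed. In the Tagln and Acta2 class, Krt14 (525 and 899 CPM) and Krt5 (988 and 1482 CPM) were higher in Gli2EKO and Fbn1 (75.1 and 32.4 CPM) was lower. Lgr5 (736 and 718 CPM) and Acta2 (1342 and 1285 CPM) were closer to equal there. In matrix-like cells, Krt14 (465 and 1430 CPM) and Krt5 (722 and 1408 CPM) were higher and Msx1 (175 and 65.3 CPM) was lower. The part of Ptch1 and of these other genes in the result was not tested.

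Fgf18, a ligand known from skeletal growth and the resting hair follicle (ENSMUSG00000057967, chr11:33067014-33097828, minus strand), marked other dermal cells. Apart from the small Ryr3 and Mylk class (11 and 2 UMIs), it was highest in Tnmd-high fibroblast-like cells, with 50.3 CPM (41.003 to 61.04) in control and 43.6 CPM (30.7 to 60.1) in Gli2EKO. Other fibroblast-like cells had 11.9 CPM (9.18 to 15.1) and 4.24 CPM (2.51 to 6.70). In Rspo2-high DP-like cells 0 UMIs were counted in either library, where 3 UMIs would be 2.98 and 6.57 CPM. Fgf18 was alike between genotypes in the Tnmd-high class, with a log2 ratio of -0.21 (-0.79 to 0.35), and lower in Gli2EKO in the other fibroblast-like cells, with -1.48 (-2.32 to -0.71). Over all dermal cells the log2 ratio was -1.13 (-1.58 to -0.69), and the Tnmd-high class made up 15.7% of control and 10.3% of Gli2EKO dermal cells.

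Fgf22 (ENSMUSG00000020327, chr10:79590875-79594431, plus strand), a ligand of the Fgf7 subfamily, was found in cornifying and hair-forming cells, but few cells carried it. Granular-layer cells of the interfollicular epidermis (IFE) had 22.7 CPM (16.004 to 31.3) in control, from 37 UMIs in 7 cells, and 13.04 CPM (8.26 to 19.6) in Gli2EKO, from 23 UMIs in 2 cells. In hair shaft-like cells, 14 of 15 control UMIs came from 1 cell. The granular class also held different cells in the libraries: Lor, a granular-layer gene, stood at 15362 CPM in control and 459 CPM in Gli2EKO and Flg at 11109.9 and 2886 CPM, while Krt10, a spinous-layer keratin, rose from 8068 to 12022 CPM. The levels of Fgf22 in this class are therefore not compared between genotypes. Differences in Fgf22 rested on single cells, which the counting intervals do not cover. Fgf20, a ligand known from the hair placode (ENSMUSG00000031603), had 34 UMIs in all, 25 in control and 9 in Gli2EKO. Matrix-like cells had 4 UMIs in each library.

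Some dermal transcripts were also counted in keratinocytes. To judge this, the level that free RNA would give was computed from the dermal collagens Col1a1, Col1a2 and Col3a1, which in keratinocytes stood at 0.534% of their dermal level in control and 0.434% in Gli2EKO. That share of the dermal level amounted to 0.933 and 0.243 CPM for Fgf7, against 0.564 and 0.271 CPM counted in keratinocytes. For Fgf10 it amounted to 0.637 and 0.334 CPM, against 0.325 and 0.302 CPM. Over all keratinocytes, Fgf7 and Fgf10 were thus at or near this background. Control epidermal cells had more Fgf7, 1.16 CPM against 0.719 CPM, and all 13 of their Fgf7 UMIs lay in IFE basal-like cells, at 2.17 CPM (1.15 to 3.70), a low level whose source was not tested. Fgf18 lay above it, with 0.325 and 0.181 CPM against 0.101 and 0.0376 CPM, but from 15 and 6 UMIs. In melanocyte-like cells, 11 of the 12 control UMIs of Fgf7 came from 1 cell.

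The receptors were then examined in the same way. Fgfr1 (ENSMUSG00000031565, chr8:26003670-26066824, plus strand), a receptor known from mesenchymal tissues, was highest in DP-like cells and low in the IFE. Adamts18-high DP-like cells had 1669 CPM (1564 to 1780.2) in control and 1393 CPM (1299 to 1492) in Gli2EKO, and Rspo2-high DP-like cells 952 CPM (893 to 1014) and 1388 CPM (1282 to 1501). Among keratinocytes it was highest in Pparg-high upper follicle-like cells (339.8 and 297 CPM), followed by lower ORS-like cells (248 and 269 CPM) and the Tagln and Acta2 class (221.5 and 276 CPM). At the other end, IFE basal-like cells had 29.3 and 14.8 CPM and IFE spinous-like cells 7.33 and 2.89 CPM. Within the keratinocytes, Fgfr1 was thus mainly a follicle receptor, with 134 and 138 CPM in follicle against 19.8 and 9.80 CPM in epidermal cells.

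Between genotypes, Fgfr1 went in opposite directions in the DP-like classes. The log2 ratio was 0.54 (0.40 to 0.69) in Rspo2-high and -0.26 (-0.40 to -0.12) in Adamts18-high DP-like cells, so the class in which Fgf7 and Fgf10 were lower had more Fgfr1. In epidermal cells, Fgfr1 was lower in Gli2EKO, with 221 UMIs in control and 149 in Gli2EKO and a log2 ratio of -1.01 (-1.32 to -0.71). In follicle cells the levels of Fgfr1 were alike, with a log2 ratio of 0.05 (-0.02 to 0.12). Other genes with higher levels in follicle cells also moved in epidermal cells. Sox9 (63.6 and 36.0 CPM) and Tbx1 (5.72 and 2.04 CPM) were lower in Gli2EKO epidermal cells. Lgr5 was also lower, at 12.99 and 3.37 CPM in IFE basal-like cells. Tagln (3.94 and 11.2 CPM), Acta2 (8.68 and 14.8 CPM) and Ptch1 (34.5 and 93.5 CPM) were higher in epidermal cells. The part of these differences in the lower Fgfr1 level was not tested.

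**Figure D4:**
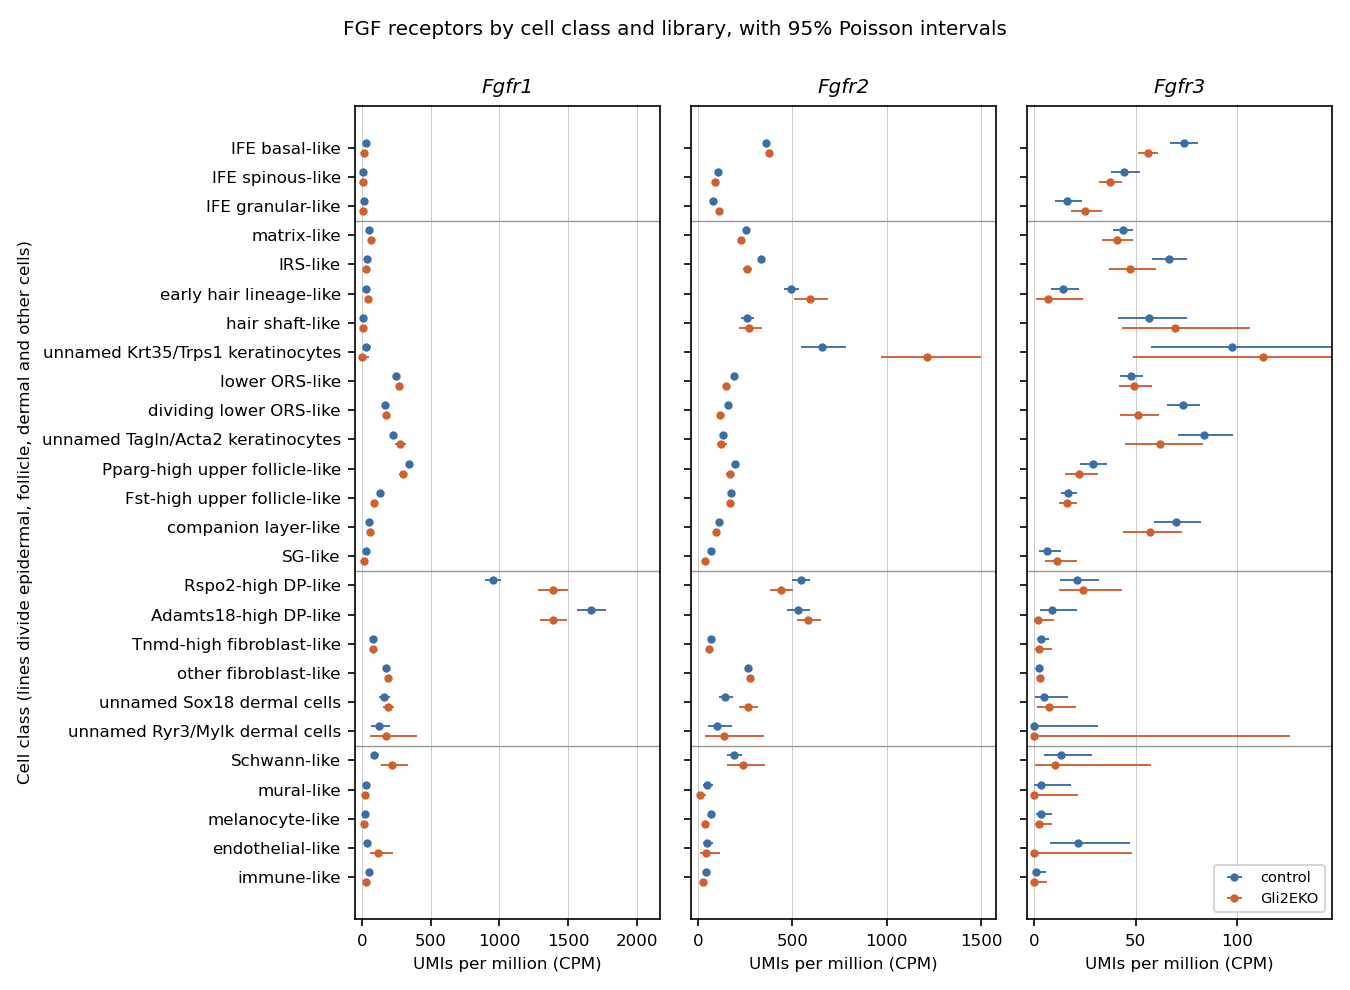
Level of the receptors Fgfr1, Fgfr2 and Fgfr3 (CPM) in each cell class, 1 panel per gene; points are the control and Gli2EKO libraries and bars are 95% Poisson intervals, and a bar that reaches the right edge of a panel goes on beyond it. Fgfr1 peaks in DP-like cells, Fgfr2 is present in nearly every class and Fgfr3 is found mainly in keratinocytes, with a lower level in Rspo2-high DP-like cells.

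Fgfr2 (ENSMUSG00000030849), the receptor of Fgf7 and Fgf10 in epithelia, was the most evenly spread member. The highest level was in a small unnamed class with high Krt35 and Trps1 (32 control and 16 Gli2EKO cells), at 655 CPM (543 to 783) in control and 1215 CPM (972 to 1501) in Gli2EKO. Adamts18-high DP-like cells (529 and 583 CPM), early hair lineage-like cells (493.5 and 594 CPM) and Rspo2-high DP-like cells (543 and 438 CPM) followed, with values that overlapped between neighbours in this order. IFE basal-like cells had 362 CPM (347 to 377) and 377 CPM (364 to 391). Immune-like cells, at 40.2 and 24.4 CPM, and mural-like cells, at 45.9 and 11.6 CPM, were the lowest. Between genotypes, Fgfr2 was close to equal in keratinocytes, with a log2 ratio of -0.05 (-0.10 to -0.01), lower in follicle cells at -0.29 (-0.35 to -0.23) and slightly higher in epidermal cells at 0.10 (0.03 to 0.17). In the small Krt35 and Trps1 class it was 1.86-fold (1.39 to 2.47) higher in Gli2EKO. The splice forms of the receptors could not be told apart in counts of transcript ends. In the gene models used here, Fgfr2 spans chr7:129763471-132725079 on the minus strand and overlaps 99 other genes, and the authors' annotation release may draw it differently.

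Fgfr3 (ENSMUSG00000054252, chr5:33879018-33894412, plus strand), a receptor known to restrain growth in cartilage, was mainly an epithelial transcript. Apart from the Krt35 and Trps1 class (97.4 and 113 CPM), the values of its leading classes overlapped: the Tagln and Acta2 class had 83.8 and 61.9 CPM, IFE basal-like cells 73.8 and 55.9 CPM, companion layer-like cells 69.9 and 56.9 CPM and dividing lower ORS-like cells 73.3 and 51.4 CPM. Hair shaft-like cells (56.6 and 69.6 CPM) and IRS-like cells (66.4 and 47.4 CPM) lay in the same range, so the order of these classes differed between the libraries. Epidermal and follicle cells were close to each other, with 56.1 and 48.1 CPM in control and 46.5 and 38.7 CPM in Gli2EKO. Dermal cells had 4.90 and 4.40 CPM on average, but Rspo2-high DP-like cells had 20.8 CPM (12.9 to 31.9) and 24.1 CPM (12.03 to 43.1), from 21 and 11 UMIs. In those of them without melanocyte, endothelial or immune markers, Fgfr3 was at 32.2 and 30.8 CPM, from 19 and 9 UMIs. Fgfr3 was slightly lower in Gli2EKO in both epithelial compartments, with log2 ratios of -0.27 (-0.43 to -0.11) in epidermal and -0.32 (-0.44 to -0.19) in follicle cells, both under the 1.5-fold limit used for counting genes.

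Fgfr1 and Fgfr2 occurred together in most DP-like cells. At 5000 UMIs per cell, 92.0% (85.3 to 96.3) of control and 89.7% (78.8 to 96.1) of Gli2EKO Rspo2-high DP-like cells had both. Because Fgfr1 was in 98.2% and 100% of these cells, the product of the separate shares had to lie near the joint share. Nothing is read from that product. In lower ORS-like cells both receptors were found in 35.2% (30.9 to 39.6) of 486 control and 35.6% (30.1 to 41.4) of 292 Gli2EKO cells, with products of 35.5% and 35.5%. Fgf7 and Fgfr1 were together in 89.3% (82.0 to 94.3) of control and 63.8% (50.1 to 76.0) of Gli2EKO Rspo2-high DP-like cells. Ligand-producing DP-like cells therefore also held receptor transcripts.

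Compared to control, the members counted as changed over whole compartments of Gli2EKO were all lower, and which ones were counted depended on the compartment. A gene was counted at 1.5-fold or more, provided that the 2 libraries together held 20 or more of its UMIs in that compartment. In dermal cells, 0 of the 6 members tested were higher (5.39% of 14450 genes) and 3 were lower (6.75%), namely Fgf7, Fgf10 and Fgf18. In DP-like cells, 0 of 5 were higher (8.96% of 10344 genes) and 2 were lower (9.33%), namely Fgf7 and Fgf10. The dermal calls were thus all mesenchymal ligands, of which Fgf10 lay close to the limit. Its log2 ratio was -0.63 (-0.79 to -0.48) over dermal cells and -0.19 (-0.43 to 0.04) in those outside the DP-like classes. Among follicle cells, 0 of 6 were higher (5.75% of 17331 genes) and 2 were lower (8.87%), namely Fgf5 and Fgf20, the latter with 22 UMIs. In epidermal cells, 0 of 4 were higher (5.39% of 14216 genes) and 2 were lower (8.38%), namely Fgf22 and Fgfr1, of which the call of Fgf22 is set aside because its UMIs came mostly from the granular class. Finally, in keratinocytes 0 of 9 were higher (6.09% of 18494 genes) and 4 were lower (12.7%), namely Fgf5, Fgf7, Fgf18 and Fgf20, of which only Fgf5 had more than 50 UMIs. The intervals of Fgf7 (-2.33 to 0.09), Fgf18 (-2.50 to 0.60) and Fgf20 (-2.30 to 0.32) in keratinocytes included equal levels, as did that of Fgf20 in follicle cells (-2.60 to 0.69), and nothing is read from these calls. Some of these counts moved with the processing: with a minimum of 50 UMIs only Fgf5 was left as lower in keratinocytes and in follicle cells, and without doublet removal 4 members were lower in follicle cells and 1 was higher. In epidermal cells, 1 member was left as lower when 16% of cells were removed as likely doublets.

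In dermal and DP-like cells, the shares of members counted as lower thus exceeded those of all genes, from small numbers of members. With the calls set aside above, Fgf5 alone was left in follicle cells and in keratinocytes and Fgfr1 alone in epidermal cells, and these counts are a description of single genes. Of the receptors, only Fgfr1 was counted, in epidermal cells, where Lgr5, Tbx1 and Sox9 were also lower and Tagln and Acta2 higher. Fgfr2 and Fgfr3 were under the limit in every compartment in which they were tested.

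**Figure D5:**
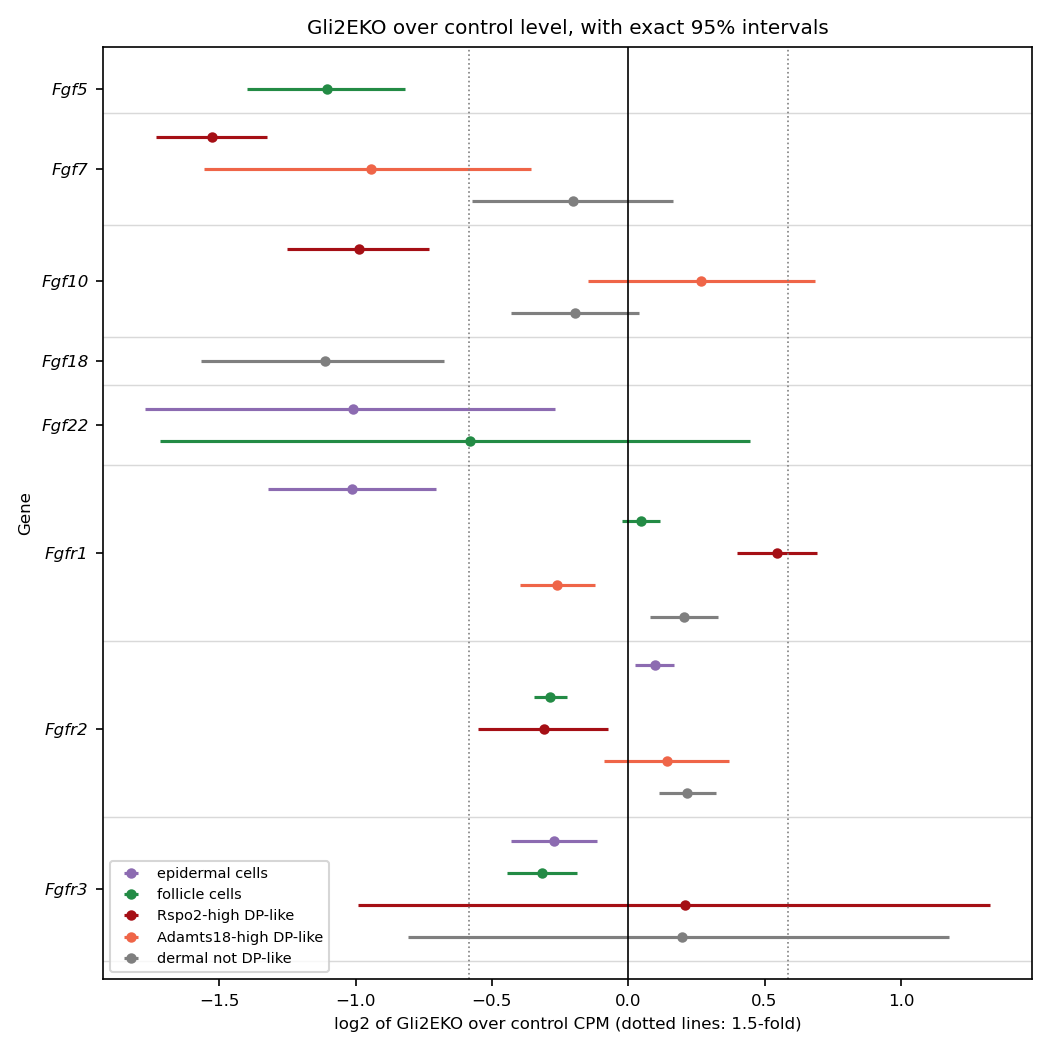
Log2 ratio of Gli2EKO over control for 8 members (vertical axis) in epidermal and follicle cells, both DP-like classes and the remaining dermal cells; points are ratios of 1 library to 1 library, bars are 95% counting intervals and dotted lines mark 1.5-fold. Fgf7 and Fgf10 lie to the left in Rspo2-high DP-like cells, Fgf5 in follicle cells and Fgfr1 in epidermal cells. The points of Fgfr2, and those of Fgfr3 in epidermal and follicle cells, lie between the dotted lines. In Adamts18-high DP-like cells Fgfr3 had only 5 control UMIs (8.97 CPM) and 1 Gli2EKO UMI (1.72 CPM), and nothing is read from them.

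To place the members within the pathway, 51 further genes of 5 lists were described by the same readouts, and their counts are to be read against the 18.0% higher and 16% lower of all genes. Of the 12 other ligands, 6 had enough UMIs for the comparison of dermal cells with keratinocytes. Of these, 1 was higher in dermal cells (Fgf2, with log2 ratios of 1.61 in control and 1.98 in Gli2EKO) and 1 was counted as lower (Fgf1). The call of Fgf1 is borderline, as in control it lay just short of 2-fold, at 4.075 CPM in keratinocytes and 2.041 CPM in dermal cells. All 4 intracellular FGF homologous factors, which do not act as ligands, were higher in dermal cells, Fgf14 the most at 8.52 and 7.75 and Fgf13 at 3.74 and 3.32. Among the 13 further receptors and co-receptors tested, 5 were higher in dermal cells, such as Fgfr4 (7.61 and 8.15) and the glypican Gpc3 (3.42 and 3.49). In turn, 6 were lower, such as the carrier protein Fgfbp1 (-5.33 and -6.45) and the syndecans Sdc4 (-3.12 and -2.87) and Sdc1 (-2.12 and -1.97). The co-receptors Kl and Klb, with 2 and 6 UMIs in all, had too few UMIs for this comparison. The 7 adaptors passed the limit in neither direction.

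The ERK response and feedback genes were found in both compartments. Of 13 such genes, 4 were higher in dermal cells, against 18.0% of all genes, with Etv1 (5.09 and 6.76) and the feedback inhibitor Spry1 (1.80 and 1.86) among them, and 2 were lower, against 16%, namely Etv4 (-3.90 and -3.83) and Dusp6 (-2.03 and -2.06), so the lower count was at the share of all genes. Over all 60 genes of the lists, members included, 18 of 52 tested were higher and 12, with the borderline Fgf1, were lower, again against 18.0% and 16%.

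In Gli2EKO, the feedback inhibitor Spry4 was lower both in keratinocytes, with 3.49 CPM in control and 1.81 CPM in Gli2EKO and a log2 ratio of -0.95 (-1.40 to -0.51), and in dermal cells, with 10.1 and 4.71 CPM and a log2 ratio of -1.10 (-1.73 to -0.51). In DP-like cells, Spry4 had 27 control and 3 Gli2EKO UMIs and a log2 ratio of -2.58 (-4.94 to -0.88). The membrane inhibitor Il17rd was lower in keratinocytes, at -0.89 (-1.07 to -0.71). The transcription factor Etv1 was lower in keratinocytes, at -2.25 (-3.96 to -0.88), and DP-like cells, at -1.07 (-2.09 to -0.14). The DP-like cells of Gli2EKO also had less Etv5 (18.5 CPM in control and 11.5 CPM in Gli2EKO). They had more Dusp4 (20.4 and 30.8 CPM) and Il17rd (33.9 and 49.1 CPM), so these genes did not move in 1 direction there. In follicle cells, control and Gli2EKO levels were 4.43 and 3.01 CPM for Spry4, 25.6 and 17.4 CPM for Il17rd and 0.858 and 0.167 CPM for Etv1. In epidermal cells Il17rd was at 2.41 and 3.03 CPM. Epidermal cells made up more of the keratinocytes in Gli2EKO, and the part of this mix in the ratios was not tested. Spry4, Il17rd and Etv1 were the 3 of 13 ERK response and feedback genes that were lower in keratinocytes, and 0 were higher. The shares of all genes were 12.7% and 6.09%, and such small counts are a description. Against this, Fgfr4 was higher in Gli2EKO dermal cells, with 55.1 and 102.5 CPM and a log2 ratio of 0.90 (0.73 to 1.06). Flrt2, a membrane protein that binds FGF receptors, was lower over all keratinocytes, at -0.75 (-0.82 to -0.67), and over all dermal cells, at -0.71 (-0.82 to -0.61). The part of the mix of epidermal and follicle cells in the keratinocyte ratio of Flrt2, and of the mix of dermal classes in its dermal ratio, was not tested.

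Over all the lists, members included, more genes were lower than higher in Gli2EKO in each compartment. All genes leaned the same way, but only by little in dermal and DP-like cells. In keratinocytes 10 of 49 tested genes were lower and 2 higher, against 12.7% and 6.09% of all genes. In dermal cells 9 and 1 of 45 were lower and higher, against 6.75% and 5.39%, and in DP-like cells 9 and 2 of 38, against 9.33% and 8.96%. Follicle cells, with 5 and 2 of 45 against 8.87% and 5.75%, and epidermal cells, with 4 and 2 of 37 against 8.38% and 5.39%, lay near the shares of all genes.

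Finally, the genes whose levels followed each member most closely were sought over 44 points, the 22 named classes in both libraries, among 15423 genes by Pearson correlation of log2(CPM + 1). Points of the same library share its depth, so the correlations are a description. Fgf7 was followed by A330076H08Rik (0.95), Tram1l1 (0.95) and Zic1 (0.94). Fgf10 was followed by Gm16263 (0.96), a transcript that lies within Fgf10 on the opposite strand, Alx4 (0.96), a marker used for the DP-like classes, and Zic4 (0.95). Fgf5 came with Upk1b (0.86), Dio3 (0.84) and Chst5 (0.81), and Fgf18 with Erp27 (0.90), Thbs4 (0.89) and Acan (0.88), of which Thbs4 and Acan encode proteins of the tendon and cartilage matrix. Fgf22 came with Nccrp1 (0.84), a marker used for the granular layer, Sdr9c7 (0.80) and Nkpd1 (0.78). Of the receptors, Fgfr1 came with Gprasp2 (0.87), Meis1 (0.84) and Zfp318 (0.83), Fgfr2 with 1110051M20Rik (0.83), Nanos3 (0.82) and Lef1 (0.81), and Fgfr3 with Rhbdl2 (0.86), Arhgef5 (0.82) and Mpzl2 (0.81).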

How the data were processed

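A control and a Gli2EKO single-cell library of mouse back skin epidermis were analysed. The authors made the deposited UMI counts with Cell Ranger 9.0.1 on GRCm39. The members and lists were chosen with earlier results of these data known. Barcodes with over 1000 and under 8000 genes and under 15% mitochondrial UMIs were kept (4844 control, 3362 Gli2EKO), and the 8% with the highest Scrublet score per library were removed (scanpy 1.11.5). Cells were normalised and clustered in Seurat 5.3.0 (2000 variable genes, FGF genes held out, 20 components, resolution 0.5) after integration with a re-implementation of Harmony. Clusters were named from 20 marker lists, and 2 clusters were split at resolution 0.3 after their marker scores had been seen. Levels, shares and intervals were computed in Python 3.11.15 with scipy 1.17.1, numpy 2.4.6 and pandas 2.3.3, and the interval code was tested on simulated data. A gene was named if it is a member, belongs to a list, is a marker used for a class or follows a member most closely. Gene coordinates are from GENCODE M39 by Ensembl identifier. No test between genotypes was made, as neither had a replicate. Alternatives were tried for doublet removal, integration, resolution, cell filter, classing, class mix, scaling, minimum UMIs and thinning, and those on unnamed clusters, dermal mix and DP-like cells with other markers were added after seeing the data. Barcodes that failed the filter were left out of the comparisons because they may be debris or several cells. Protein sequences were left out because no file holds them.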

Additional observations from a re-analysis of the deposited data

Results flagged for a closer look

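In barcodes that failed the cell filter, which the comparisons did not use, Fgf22 stood at 15.3 CPM (10.5 to 21.4) in Gli2EKO, above 1.91 CPM in control. Of the 33 Gli2EKO UMIs, 29 came from 1 barcode with 94362 UMIs and 8162 genes, in which Krt71, an IRS keratin, reached 48897 CPM. In the same barcodes, Fgfr2 was at 288 CPM (266 to 312) in Gli2EKO, above 189.9 CPM (176 to 205) in control. Among barcodes removed as likely doublets, Fgf22 was at 3.64 CPM (2.19 to 5.68) in Gli2EKO, from 19 UMIs of which 10 came from 1 barcode, above 0.121 CPM in control, from 1 UMI. These signals were marked because they appear in data outside the comparisons at a level above the control library, and the differences were not tested.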

How the results depend on the processing

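Of 1323 values computed under an alternative, 1091 were alike, 232 moved and 0 reversed their direction. No integration and a resolution of 1 left every ratio between libraries and every dermal over keratinocyte ratio alike. Of 19 dermal over keratinocyte values, 5 moved without doublet removal and 5 with each cell classed on its own by its marker UMIs. With 16% of cells removed, 3 of 18 moved. Under a median of ratios size factor, 5 of 50 values between libraries moved. The log2 ratio of Fgf5 in keratinocytes, -1.60, was -0.93 with Gli2EKO classes weighted by their control shares, and -1.30 without the unnamed clusters, an alternative added after seeing the data. That of Fgf7 in DP-like cells, -1.93, was -1.49 with dermal clusters weighted in the same way, also added later, and that of Fgf10, -0.93, was -1.16 under 5% mitochondrial UMIs and over 2000 genes. Of the 4 members lower in keratinocytes, 1 was left with a minimum of 50 UMIs, where fewer genes were tested. In follicle cells 2 were lower, against 4 without doublet removal (1 was then higher, instead of 0), 1 with 16% of cells removed, 1 with classes weighted and 1 with a minimum of 50 UMIs. In epidermal cells 2 were lower, against 1 with 16% removed and 1 under the stricter cell filter. The number of members with their highest level in epidermal cells was 2, but 0 without doublet removal, 1 with 16% removed and 1 under the stricter filter. Thinned to 5000 UMIs and not thinned, the share of DP-like cells with Fgf7 was 72.2% and 74.0% in control (53.6% at 2000 UMIs) and 38.2% and 44.2% in Gli2EKO (23.1%). For Fgf10 it was 66.1% and 74.0% in control (45.3%) and 48.9% and 57.7% in Gli2EKO (29.5%). More UMIs per cell were counted in both alternatives. At 5000 UMIs, cells with fewer UMIs were also left out, and the parts of these 2 changes were not separated. Apart from the weighting, the minimum and the thinning, the cause was not tested. Of the members, Fgf20, with 34 UMIs, and Fgf22, with 116 UMIs, had the fewest UMIs, and those of Fgf22 lay mostly in few cells.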
